A study of Mus musculus with 9 samples.

Results

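The untreated arrays of this series came from TAMH cells kept in control medium for 2, 6 or 24 h. They are 3 of the 9 arrays and were chosen by their titles, which give the treatment and the time. TAMH is a mouse liver line, labelled with the strain C57BL/6. As background, it was derived from hepatocytes of mice that carried a human TGF-alpha transgene driven by the metallothionein promoter. The other arrays came from cells given 2 mM acetaminophen (APAP) or 2 mM of its regioisomer AMAP for the same times. Cells had reached confluence in 2 dishes per treatment before the medium was given, and they were scraped off the dish before RNA extraction, per the labels' protocols. With 1 array for each time, differences between times could not be checked in replicates, and no p is given for them. Dishes, RNA preparation and array cannot be told apart from time in culture, and no array was made at the moment the medium was given. Values are RMA expression values on the log2 scale, on which 1 unit is 2-fold.

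Hepatocytes secrete most plasma proteins, such as albumin, clotting factors and apolipoproteins, and carry out drug oxidation by cytochromes P450, conjugation, bile acid transport and the urea cycle. In culture they are known to lose part of this programme, first of all many P450 enzymes. TGF-alpha is a ligand of the EGF receptor and drives hepatocyte growth. Cells that use up amino acids or take up too little cystine are known to raise translation of the transcription factor ATF4. ATF4 binds with C/EBP partners and acts on genes of amino acid import, amino acid synthesis and tRNA charging.

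Level of expression. Of 12393 genes with a probe set of their own, 7485 (60.4%) read above background on all 3 arrays, 4497 on none and 411 on some. The background limit was the 95th percentile of 144 probe sets of 91 genes used in other tissues, which was 4.74 at 2 h, 4.69 at 6 h and 4.78 at 24 h. Where a gene had several probe sets, the brightest over the 3 arrays stood for it. A reading at background is a statement about that probe set and does not show that the transcript is absent.

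The 20 brightest genes were mostly those of protein synthesis, with 11 ribosomal protein genes among them. Alb, which encodes albumin, was among them with levels of 13.28 at 2 h, 13.03 at 6 h and 13.17 at 24 h. The others were the translation factor gene Eef1a1, Tpt1, the ferritin heavy chain gene Fth1, the actins Actb and Actg1, Tmsb10, which encodes an actin-binding thymosin, the galectin gene Lgals1 and the class I histocompatibility gene H2-K1. The 3 arrays thus read albumin mRNA at close to the top of the scale at every time.

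Plasma protein genes were largely present. Of 44 on the array, 33 read above background, 9 at background and 2 on some arrays. Besides Alb, the bright members were the thyroxine carrier Ttr (12.35, 11.66 and 11.94 at 2, 6 and 24 h), the haptoglobin gene Hp (11.76, 11.99 and 12.10) and the apolipoprotein gene Apoa1 (12.01, 11.54 and 11.31). At background were the clotting factor genes F7 and F9, Serpinc1 (antithrombin), Serpina6, Apoa4, Itih1, Itih3 and the complement genes Hc and C8a. Liver transcription factors were present in 17 of 21 cases, led by Hnf4a, and the 3 at background were Prox1 and the xenobiotic receptors Nr1i2 (PXR) and Nr1i3 (CAR).

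Drug oxidation was the sparsest liver function. Of 35 genes of cytochromes P450 and other phase I enzymes, 13 read above background and 22 at background. Cyp2e1, Cyp1a2 and Cyp3a11 oxidise APAP in liver. Cyp2e1 and Cyp1a2 were at background, and Cyp3a11 was above it. Cyp7a1 and Cyp8b1, of bile acid synthesis, and Cyp2b10, a target of CAR, were at background too. Aldh1a1, Ephx1, Cyp51 of sterol synthesis, Aldh2, Cyp39a1 and Cyp27a1 were above it. Conjugation genes were present more often, 19 of 28, with the glutathione transferase Gstp1 and the microsomal enzyme Mgst1 as the brightest.

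Other mature functions were split. Of 24 genes of the urea cycle and amino acid breakdown, 11 read above background, among them Cps1, Asl, Fah and Cth, while Otc, Arg1, Tdo2 and Hpd were at background. Of 22 hepatocyte transporters 11 were above it. The bile acid importer Slc10a1, the organic anion importer Slco1b2 and the bile salt pump Abcb11 were at background. In glucose and glycogen metabolism the count was 6 of 12, with Pck1, Gys2, Pygl and Fbp1 at background. Of 18 hepatocyte markers 13 were above background, and those at background were Serpinc1, Tdo2, Slc10a1, Cyp2e1 and Pck1.

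Genes of fetal liver and progenitor cells were bright beside these mature genes. Of 19 such genes 14 read above background. Afp, the fetal counterpart of albumin, read 12.53, 12.36 and 12.33 at 2, 6 and 24 h. Igf2, Sox4, Peg3, Cd24a, Cd44 and the chromatin protein gene Hmga2 were also above background, while Epcam, Gpc3, Dlk1, Mest and Lgr5 were at background. Keratins Krt8 and Krt18 and the mesenchymal filament gene Vim were all above background, as were Cldn3, Tjp1 and Fn1.

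Growth genes were widely expressed in these confluent cells. All 34 mitosis genes and all 30 DNA replication genes on the array read above background at every time. Of 28 genes of cell cycle entry and inhibition, 24 were above it, and Cdkn2a, Cdkn2b, Cdk2 and Cdkn1c were at background. In the EGF receptor family 9 of 14 were above background. Egfr read 9.06, 9.78 and 9.12, and mouse Tgfa read 8.90, 8.25 and 8.33. The probe set was designed on mouse Tgfa, and whether it also reads the human transgene was not tested. Egf, Ereg, Nrg4 and Erbb4 were at background. Of 36 other growth receptors and ligands 27 were above it, led by Axl and Il6st.

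Markers of other cell types were mostly at background. Of 15 macrophage markers 1 was above background, Cd14, which was bright, with a mean of 10.24 over the 3 arrays. Adgre1, Clec4f, Ptprc and Csf1r were at background. Of 17 stellate cell and fibroblast markers, Dcn and Des were above it. Dcn, which encodes the matrix proteoglycan decorin, read 9.97, 10.38 and 10.67 and so was higher at 24 h than at 2 h, while Col1a1, Col1a2, Col3a1 and Pdgfrb were at background. Of 16 endothelial markers Esam and Egfl7 were above it, of 14 lymphocyte markers Cd3e and of 7 red cell markers Epor. The median of these lists lay between 3.43 and 3.87 on each array, near the other-tissue median of 3.21 to 3.25. Cholangiocyte markers were the exception with 7 of 12 above background, including Krt7, Krt19, Sox9 and Cftr, and Epcam, Muc1, Cldn7 and Aqp1 at background. The readings of plasma proteins and Hnf4a did not go against the label of a liver cell line, while part of the mature hepatocyte set was not above background.

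**Figure D1:**
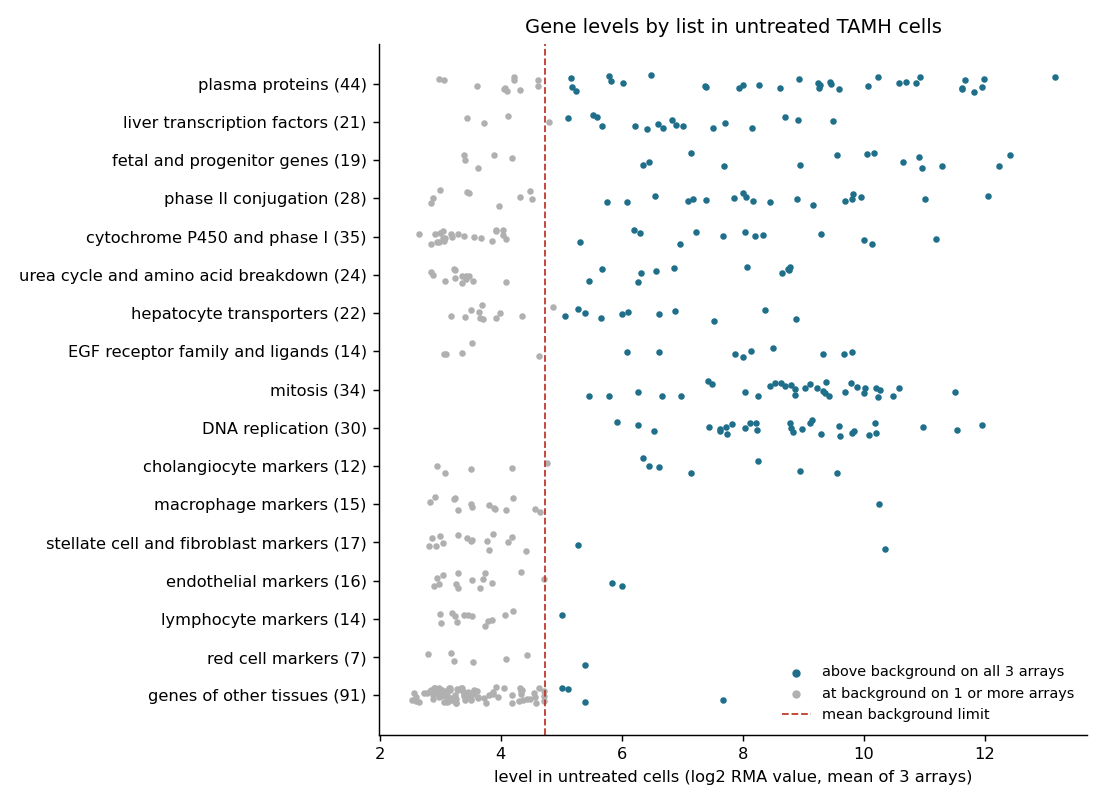
Each point is 1 gene, placed by its mean log2 RMA value over the 3 untreated arrays, in the list named at left with its number of genes on the array. Blue genes read above background on all 3 arrays, grey genes did not, and the dashed line is the mean of the 3 background limits. Plasma protein, mitosis and DNA replication genes lie mostly or wholly above the line, and P450 genes and markers of blood and vessel cells mostly below it.

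Overall stability. A gene was called 2-fold apart where the difference was at least 1 log2 and at least 1 of both arrays reached 5.63, the median over the 3 untreated arrays. Genes whose mean over the 3 arrays reached that median are called expressed, and there were 6716. Their SD of the difference was 0.27 log2 for 24 h against 2 h, 0.31 for 6 h against 2 h and 0.34 for 24 h against 6 h. Within 1.5-fold were 96.1%, 93.9% and 90.9% of them. The 3 differences share arrays and are not independent. The 6 h array took part in both wider ones, and the arrays farthest apart in time differed least.

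Technical readings of the untreated arrays were as follows. The lower quartile lay between 3.57 and 3.63. The median was 5.69 at 6 h, against 5.62 at 2 h and 5.61 at 24 h. The Actb 3′ probe set exceeded the 5′ one by 0.47 at 2 h, 0.34 at 6 h and 0.38 at 24 h, against 0.08 to 0.38 on the treated arrays. The log2 ratio of the middle to the 3′ probe set of the bacterial control transcript dap was -0.60 at 2 h, -0.51 at 6 h and -0.48 at 24 h, against -1.94 to -0.44 on the treated arrays.

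24 h against 2 h. After a day in medium, 29 of 30 genes of the ATF4 response and amino acid supply were higher. Single genes of other kinds were higher as well, among them the transcription factor gene Klf10, the cold-inducible gene Cirbp, the metallothionein gene Mt2 and the acute-phase gene Saa3. The count of genes higher by 2-fold or more was 52 (0.766% of those bright enough to be called), and that of lower genes 7 (0.103%). The split was thus strongly to the higher side, although 3667 expressed genes were lower and 2799 higher, and the median of all of them was -0.02.

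The largest difference was that of Klf10, a TGF-beta-induced transcription factor, which read 5.45 at 2 h, 5.62 at 6 h and 7.50 at 24 h. It was close to its 2 h level at 6 h and 4.14-fold higher at 24 h. Cirbp, an RNA-binding protein induced by mild cold, read 5.78, 7.34 and 7.81. Its 6 h level already lay near that of 24 h, and the difference at 24 h was 2.04 log2. Neither gene had a further probe set above the median.

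Nupr1, a stress-induced chromatin-associated protein, read 6.57, 6.94 and 8.56, and its further probe set 6.19, 6.96 and 8.24. Both probe sets placed the larger step after 6 h. Slc7a11, the cystine and glutamate exchanger, read 4.32, 5.44 and 6.19. The 2 h value lay below the background limit, so the difference at 24 h is given against that limit, as at least 2.73-fold higher. Aqp9, the glycerol and urea channel of hepatocytes, read 5.72, 6.66 and 7.47, and its further probe set followed with a difference of 1.74.

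The other genes among the 10 highest were H1f2, Sprr1a, Socs2, Bhlhe40 and Lrg1. H1f2 encodes a linker histone, and Sprr1a an envelope precursor of stressed epithelia. Socs2 is an inhibitor of growth hormone signalling, Bhlhe40 a clock-linked repressor, and Lrg1 an acute-phase glycoprotein. H1f2 was higher by 1.69 and its further probe set by 1.77 at 24 h. Sprr1a was higher by 1.68, Socs2 by 1.64, Bhlhe40 by 1.63 and Lrg1 by 1.60.

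The 7 lower genes were led by Irs1, the adaptor of the insulin and IGF1 receptors, which read 7.89, 7.89 and 6.44. It held its level to 6 h and was lower by 1.46 log2 at 24 h. The sialyltransferase gene St8sia4 differed by -1.18, the aminopeptidase gene Enpep by -1.09 and the neutrophil chemokine gene Cxcl1 by -1.08. Tor4a differed by -1.04, and Zkscan1 and Gatad2b by -1.03 each. None of the 7 had a further probe set above the median.

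Probe sets of a gene bind different stretches of its transcript, so a further one offers a check of the signal, though not of the culture, since it reads the same RNA. Among the 2-fold genes of 24 h against 2 h, 16 had a further probe set above the median, all of them higher. The brightest of these followed, that is, differed the same way by 0.5 log2 or more, in 15 of the 16 (93.8%, 95% exact binomial interval 69.8 to 99.8, counting error only). The exception was the transcription factor gene Sp1, whose further probe set differed by 0.02. Bcl2l11, which encodes the BH3-only protein Bim, had 4 further probe sets and all 4 followed. All further probe sets above the median also followed for Ndrg1, Tgfbr1 and Hmga2.

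ATF4 response and amino acid supply. This list had the largest median difference of all lists with at least 5 expressed members, 0.61 log2 over 30 expressed genes, against -0.02 over all expressed genes. Of the 30 genes, 29 were higher at 24 h than at 2 h. By at least 1.5-fold 15 were higher and 0 lower, and by at least 2-fold 5 were higher. Of the genes bright enough to be called, 2.8% were higher and 1.5% lower by 1.5-fold, and 0.766% were higher by 2-fold. The lower gene of the list was Cebpg, a dimer partner of ATF4, which differed by -0.20. All 29 further probe sets above the median, from 20 of the genes, were higher too, with a median of 0.64. The list was picked with earlier results of these data known.

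By role, the regulators were higher to different degrees. Atf4 itself read 10.61, 10.73 and 11.18, a difference of 0.57. Its target Ddit3, which encodes the stress factor CHOP, read 7.42, 7.28 and 8.28. Trib3, a pseudokinase that restrains the pathway, read 7.02, 6.88 and 8.53, and its further probe set 5.63, 5.15 and 7.36. In both Ddit3 and Trib3 the 6 h array lay at or below the 2 h array and the 24 h array stood alone.

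The same held for Chac1 and Vldlr, effectors outside amino acid synthesis. Chac1, which degrades glutathione, read 6.09, 5.99 and 7.62. The lipoprotein receptor gene Vldlr read 6.95, 6.69 and 8.25, and its further probe set differed by 0.77. Herpud1, of the disposal of misfolded ER proteins, read 10.11, 9.33 and 10.83, and its further probe set 9.43, 8.81 and 10.09. Herpud1 thus was lower at 6 h than at 2 h on both probe sets and higher than both at 24 h.

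Genes of amino acid import differed widely among themselves, from Slc7a11 above to Slc38a2, and those of synthesis and tRNA charging named here were all higher by less than 1 log2. The large neutral amino acid carrier Slc7a5 was higher by 1.03 at 24 h and by 0.94 at 6 h already. In synthesis, Aldh18a1 (proline) was higher by 0.95, Asns (asparagine) by 0.83 and Psph (serine) by 0.83. Phgdh, the first enzyme of serine synthesis, differed by 0.32. Among tRNA synthetases, Cars was higher by 0.58, Sars by 0.56, Gars by 0.41, Aars by 0.35 and Wars by 0.32. Slc38a2 differed by 0.00 and Slc3a2 by 0.14. At 6 h the median of the list was 0.13, against 0.06 over all expressed genes, with 20 genes higher and 10 lower.

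The ER chaperone list stood apart from this in size, with a median of 0.04 over 20 genes at 24 h, 13 higher and 7 lower, and none 1.5-fold apart. Heat shock protein genes had a median of -0.02 and genes of NRF2 and glutathione a median of -0.01, which changed sign after cyclic loess.

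The 6 genes of the list with the largest difference in any of the 3 comparisons between times are shown here (for Herpud1 that is 24 h against 6 h) with the part of their promoter window that holds the core of the C/EBP-ATF response element, the site type bound by ATF4 with C/EBP partners. The core was searched as TGATGNAA on both strands in 300 bases around each start site, from 250 before it. Sequences are those of RefSeq on GRCm38.p6, 5′ to 3′ on the strand of the gene, with the matches in capitals. The Nupr1 stretch is chr7:126625523-126625630 on the minus strand and that of Chac1 is chr2:119350999-119351106 on the plus strand. The Vldlr stretch is chr19:27216770-27216877 on the plus strand and that of Slc7a11 is chr3:50443614-50443729 on the minus strand, with 2 matches. The Herpud1 stretch is chr8:94386267-94386374 on the plus strand, and the Trib3 stretch, which lies after the start site, is chr2:152344028-152344057 on the minus strand.
Nupr1: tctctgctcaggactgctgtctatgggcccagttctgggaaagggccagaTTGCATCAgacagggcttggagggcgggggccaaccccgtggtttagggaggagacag
Chac1: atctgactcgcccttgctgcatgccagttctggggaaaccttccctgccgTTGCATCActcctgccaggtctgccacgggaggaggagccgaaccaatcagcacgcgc
Vldlr: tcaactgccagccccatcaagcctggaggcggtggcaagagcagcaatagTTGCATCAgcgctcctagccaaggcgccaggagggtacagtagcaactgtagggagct
Slc7a11: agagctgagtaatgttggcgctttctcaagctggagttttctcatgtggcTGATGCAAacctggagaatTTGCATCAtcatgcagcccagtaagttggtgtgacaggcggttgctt
Herpud1: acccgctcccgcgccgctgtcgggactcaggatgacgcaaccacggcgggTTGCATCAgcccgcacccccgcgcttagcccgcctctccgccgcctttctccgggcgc
Trib3: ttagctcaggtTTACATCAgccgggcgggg

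The core was present in the window of 9 of the 25 expressed list genes that had a window (36.0%). Over all 32851 windows the share was 3.97%, and over 5539 expressed genes with a window it was 2.60%. Of 39 genes 2-fold higher at 24 h with a window, 10 (25.6%) held it, among them Aqp9, Atf3, Gadd45g, Arid5a and Slc17a1, which are not in the list. The motif was chosen after the differences were seen, and a match is a description of letters and not of binding. The list was drawn up as genes of the ATF4 response, so its share is no check of the 24 h difference.

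**Figure D2:**
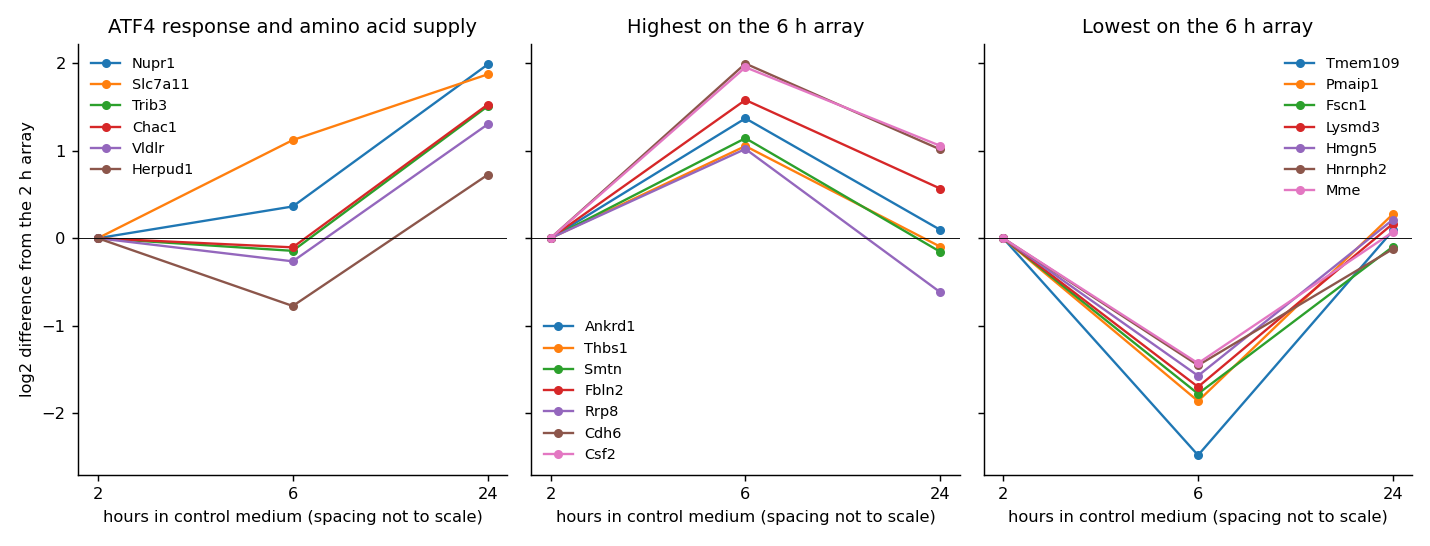
Lines give the log2 difference of each gene from the 2 h array at 6 and 24 h in control medium, 1 array per time, so no error bars can be drawn, and the time axis is not to scale. The genes of the ATF4 list end between 0.72 and 1.99, the middle genes peak at 6 h between 1.02 and 2.00, and the genes at right dip at 6 h to between -2.48 and -1.43 and return to within 0.3 of the start. Slc7a11 was at background at 2 h, so its line starts from a value at background.

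Other lists at 24 h. Immediate-early and MAPK feedback genes had a median of 0.40 over 29 expressed genes, 21 higher and 7 lower. By at least 1.5-fold 9 of them were higher and by at least 2-fold 4. Of all expressed genes 41.7% were higher, 2.52% by at least 1.5-fold and 0.67% by at least 2-fold. Junb, an AP-1 subunit, read 7.15, 8.17 and 8.41, and its relative Fosl1 read 5.45, 6.90 and 6.68. Both AP-1 genes were near their 24 h level at 6 h. Klf4 was higher by 1.35 at 24 h, while Egr1 differed by -0.40 and Zfp36 by -0.56. With the dim members kept in, the median was 0.17, and of 13 further probe sets 4 were higher and 8 lower, so the list did not move as a block.

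Acute-phase genes had a median of 0.52 over 6 expressed genes. Saa3, a serum amyloid, read 6.12, 6.28 and 7.25, and Orm1, an orosomucoid, read 5.30, 6.24 and 6.35. Lcn2, an iron-chelator carrier, was higher by 0.71. Crp went the other way, at 7.88, 6.90 and 6.94, and Lbp differed by -0.44. With dim members kept in, the median over 13 genes was 0.01.

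Metal and glucocorticoid response genes overlapped in the metallothioneins. Mt2 read 10.49, 11.24 and 11.62 and Mt1 10.99, 11.91 and 11.76, so that both were higher at 6 h already. The zinc exporter gene Slc30a1 read 6.24, 6.24 and 7.54. Over 10 expressed genes of metallothionein and iron the median was 0.36, and the transferrin receptor gene Tfrc differed by -0.69. Over 17 glucocorticoid response genes the median was 0.51, with 10 higher and 7 lower. Klf9 read 8.14, 7.38 and 9.01, and Dusp1 8.92, 8.89 and 9.88, while Fkbp5, a sensitive target, differed by -0.06 and Cebpd by -0.71. With the 5 members whose further probe set agreed in sign, the median was -0.06.

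Clock genes had a median of 0.22 over 12 genes. Besides Bhlhe40, the repressor gene Nr1d2 was low at 6 h, at 6.85, 5.88 and 7.55, and Nfil3 was higher by 0.68 at 24 h. With the 3 members whose further probe set agreed in sign, the median was -0.27. The 3 times cannot trace a daily rhythm.

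Most liver lists differed little at 24 h, while hepatocyte markers were lower in median. The hepatocyte markers share many members with the plasma proteins, among them Alb, Ttr and Apoa1, so both lists are not separate readings. Plasma proteins had a median of -0.04 over 30 expressed genes, 28 of them within 1.5-fold. Of their 12 further probe sets 8 were lower and 4 higher, with a median of -0.22. Apoa1 differed by -0.71 and Serpind1, heparin cofactor II, by 0.74. Cebpb was higher by 0.91, while the median of 14 liver transcription factors was -0.12, or 0.05 with the mean of all probe sets. Genes of cytochromes P450 and phase I had a median of 0.03 over 12, with Fmo1 higher by 1.05 and Cyp39a1 by 0.98. Hepatocyte markers had a median of -0.30 over 12 genes, 8 lower and 4 higher, or -0.12 with dim members kept in. Their 8 further probe sets, from 3 of the genes, had a median of -0.58, with 7 lower and 1 higher.

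Growth and metabolism differed little as well. Mitosis genes had a median of -0.09 over 33, 25 lower and 6 higher, with none 1.5-fold apart, and DNA replication genes a median of -0.07 over 30. Hmga2 read 9.31, 10.28 and 10.59, and both of its further probe sets followed. The TGF-beta receptor gene Tgfbr1 was higher by 1.31, and Smad7 and Skil, both feedback inhibitors of TGF-beta signalling, by 1.14 and 1.13. Fatty acid synthesis genes had a median of -0.16, cholesterol synthesis genes -0.05, fatty acid oxidation genes -0.04, respiratory chain genes -0.03 and interferon response genes -0.07. Genes of glycolysis and hypoxia had a median of 0.09.

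**Figure D3:**
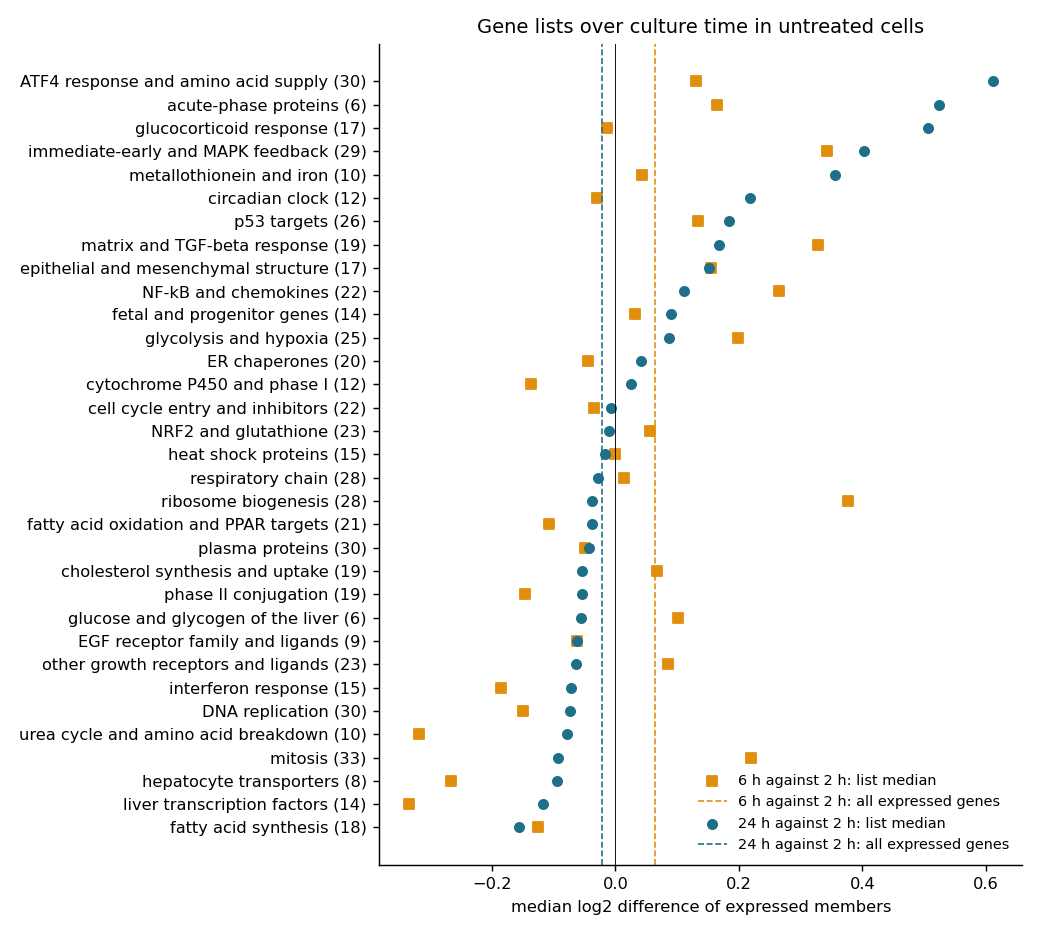
Points give the median log2 difference of the expressed members of each list, with their number in brackets, for 6 h (orange squares) and 24 h (blue circles) against the same 2 h array. Dashed lines give the median of all expressed genes, 0.06 at 6 h and -0.02 at 24 h. The ATF4 list is farthest right at 24 h, at 0.61, and ribosome biogenesis at 6 h, at 0.38. Each gene is given by its brightest probe set.

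6 h against 2 h. At 6 h, 26 of 28 ribosome biogenesis genes and 15 of 19 matrix and TGF-beta response genes were higher than at 2 h, and 13 of 14 liver transcription factors were lower. These counts rest on the brightest probe set of each gene. The 16 further probe sets of the ribosome biogenesis genes had a median of only 0.04, with 10 higher and 5 lower. The median of all expressed genes was 0.06, and 59.6% of them were higher and 38.0% lower. By 2-fold or more, 36 genes (0.523%) were higher and 35 (0.508%) lower. Scaling changed this split: cyclic loess gave 24 higher and 43 lower, and median centring of each array gave 22 and 44.

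The highest genes were Cdh6, a cadherin, and Csf2, which encodes GM-CSF. Cdh6 read 6.50, 8.49 and 7.51, and Csf2 6.22, 8.17 and 7.27. Both stood highest at 6 h and were still 2-fold above 2 h at 24 h. Sprr1a and Cirbp were among the 10 highest at 6 h as at 24 h, with 1.87 and 1.56, and Fosl1 was higher by 1.46. Cd40, Fbln2 and Akap12 were higher by 1.62, 1.58 and 1.57. The other members of the top 10, Il18rap and Tnnt2, were at background at 2 h, with 3.79 and 3.91, and only just reached the level required at 6 h, with 5.64 and 5.63. Against the background limit Il18rap and Tnnt2 were each at least 1.86-fold higher, and their rank rests on values at background.

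Of the 36 higher genes, 4 that are known as targets of YAP or of serum response factor are given here, picked after their values were seen and not scored as a list. Ankrd1, a nuclear ankyrin protein, read 8.15, 9.52 and 8.25, and its further probe set 7.16, 8.57 and 7.29. Ccn1 read 9.11, 10.25 and 10.08 and Ccn2 9.65, 10.78 and 10.47. Thbs1, encoding the matrix protein thrombospondin 1, read 7.87, 8.92 and 7.77, and its further probe set 7.44, 8.67 and 7.36. Ankrd1 and Thbs1 were back at their 2 h level at 24 h on both probe sets, while Ccn1 and Ccn2 were not. Smtn, of the contractile apparatus, Fbln2 and Rrp8 were the other genes 2-fold higher at 6 h and again 2-fold lower at 24 h. The TEAD motif GGAATG, on either strand, was chosen after the values were seen. It was in the window of 6 of the 27 genes 2-fold higher at 6 h that had a window (22.2%). The share was 16.6% of all genes with a window and 14.1% of expressed ones. The 6 were Ankrd1, Ccn1, Csf2, Rin1, Smtn and Tnnt2, so Ccn2 and Thbs1 were not among them.

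The matrix and TGF-beta response list had a median of 0.33 over 19 expressed genes at 6 h, 15 higher and 4 lower. By at least 1.5-fold 5 of them were higher, against 3.8% of the genes bright enough to be called. The 13 further probe sets of the list had a median of 0.19, 9 of them higher. The NF-kB and chemokine list had a median of 0.26 over 22 genes, 17 higher, and its 12 further probe sets 0.30, with 9 higher. Tnfaip2 and Tnfaip3 were higher by 0.91 and 0.70, and Cxcl1 differed by -0.82. In the EGF receptor family Hbegf, a ligand, was higher by 0.79 and Egfr by 0.72, and both further Egfr probe sets above the median were higher, by 1.34 and 0.56. Tgfa differed by -0.66.

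Ribosome biogenesis genes were higher in 26 of 28 cases at 6 h, with a median of 0.38 against 0.06 over all expressed genes, 4 of them by at least 1.5-fold. Rrp12 read 6.94, 7.72 and 6.92, and Wdr43 8.35, 9.04 and 8.21. Ncl, the nucleolar protein nucleolin, was the exception in size, at 11.35, 10.70 and 11.46. The 16 further probe sets had a median of 0.04, not above that of all expressed genes, with 10 higher and 5 lower. In mitosis the median was 0.22 over 33 genes, 25 of them higher, and 0.06 over 19 further probe sets. Myc differed by 0.51.

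Liver transcription factors were lower in 13 of 14 cases, with a median of -0.34. By at least 1.5-fold 1 of them was lower, against 2.74% of the genes bright enough to be called. Nr5a2, a regulator of bile acid genes, read 7.05, 6.08 and 6.92, and Foxa1 7.38, 6.80 and 6.84. Of their 7 further probe sets 5 were lower, with a median of -0.22. Plasma proteins had a median of -0.05 over 30 genes, while the 12 further probe sets, from 6 of these genes, were all lower, with a median of -0.48. Cdo1, of cysteine breakdown, read 9.36, 8.22 and 8.37.

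The 10 lowest genes were Tmem109, Pmaip1, Fscn1, Lysmd3, Hmgn5, Spib, Hnrnph2, Hipk3, Mme and Phip. Spib was at background at 6 h, and its 2 h level was at least 2.49-fold higher. Pmaip1, the gene of the BH3-only protein Noxa, read 8.95, 7.09 and 9.23. Hmgn5, a nucleosome-binding protein, read 8.78, 7.21 and 9.00, and Lysmd3 read 7.06, 5.36 and 7.23. In all 3 genes the 6 h array stood alone and the outer arrays were within 0.3 of each other.

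Further probe sets followed only part of these low readings. Tmem109, with the largest difference of all, read 9.38, 6.90 and 9.47. One further probe set read 8.84, 6.76 and 8.95, but another read 7.94, 8.15 and 7.96. Fscn1, which encodes the actin bundler fascin, read 7.50, 5.72 and 7.41 on its brightest probe set and 6.36, 6.22 and 6.36 on the further one. The progranulin gene Grn was lower by 1.39 on its brightest probe set, and its further ones differed by -0.08 and -0.20. The probe sets of Tmem109, Fscn1 and Grn thus disagreed on whether the gene was low at 6 h.

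Over the 2-fold genes of 6 h against 2 h, the brightest further probe set followed in 15 of 22 (68.2%, interval 45.1 to 86.1). Among higher genes it was 7 of 8, and H1f2 was the exception, at 1.41 on its brightest probe set and -0.57 on the further one. Among lower genes it was 8 of 14. The 6 that did not follow were Fscn1, Hipk3, Grn, Limd2, Pofut2 and Qk. For Tmem109 and Pofut2 the probe set that was brightest over all 9 arrays differed by 0.21 and 0.38 in place of -2.48 and -1.25.

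24 h against 6 h. This difference shares an array with each of the others. By 2-fold or more, 56 genes (0.813%) were higher at 24 h and 30 (0.435%) lower, or 76 and 14 after cyclic loess and 75 and 13 after median centring. The highest were Tmem109 at 2.57, Pmaip1 at 2.14, Bcl2l11 at 1.90, Klf10 at 1.88 and Lysmd3 at 1.87. The lowest were the nucleolar gene Rrp8 at -1.64, Cdhr1, Irs1 at -1.45, Sh3rf1 at -1.37 and Smtn at -1.30. Cdhr1 was at background at 24 h, and its 6 h level was at least 1.88-fold higher. Bcl2l11 read 8.84, 7.98 and 9.89, and its 4 further probe sets followed for 24 h against 6 h.

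The brightest further probe set followed in 21 of 34 genes (61.8%, interval 43.6 to 77.8), in 13 of 24 higher and 8 of 10 lower. Ribosome biogenesis genes were lower in 26 of 28, with a median of -0.40 against -0.09 over all expressed genes. By at least 1.5-fold 6 of them were lower, against 5.88% of the genes bright enough to be called. The 16 further probe sets of the list had a median of -0.15. Of all expressed genes 4200 were lower and 2382 higher. Mitosis genes had a median of -0.32, 7 of 33 lower by at least 1.5-fold, with Kif23, a spindle motor, lower by 1.05 and its further probe set not following. Of the ATF4 list 26 of 30 were higher, with a median of 0.38. By at least 1.5-fold 10 of them were higher, against 3.74% of the genes bright enough to be called.

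**Figure D4:**
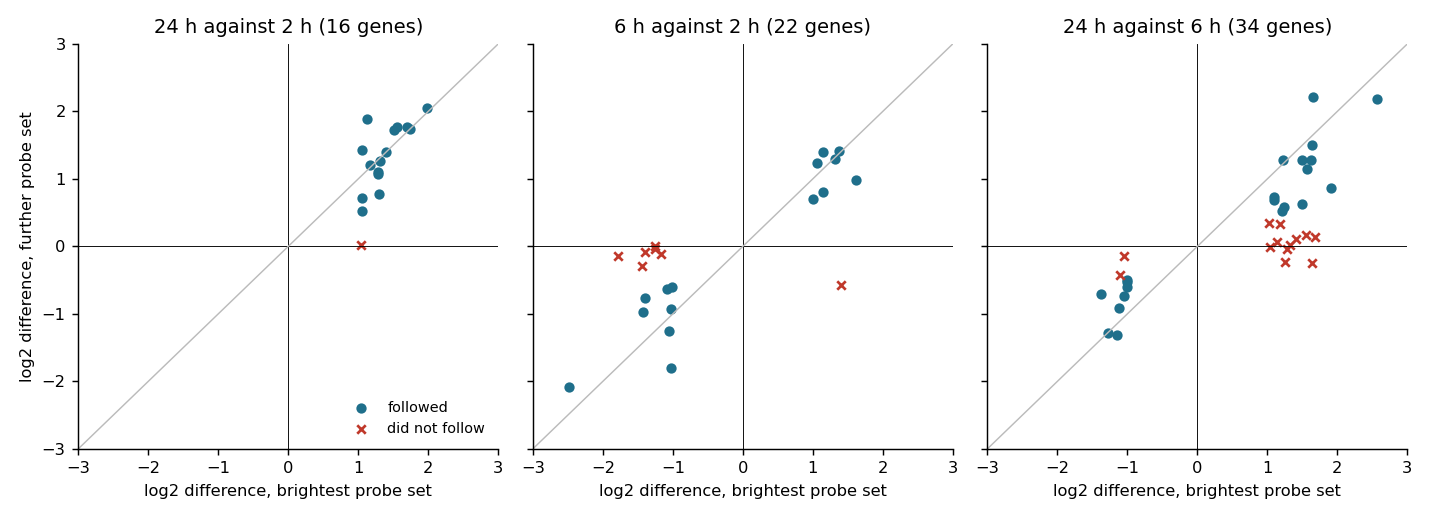
Each point is a gene 2-fold apart between untreated arrays that had a further probe set above the median, with the log2 difference of its brightest probe set on the horizontal and of the brightest further one on the vertical axis. Blue points followed by at least 0.5 log2, red crosses did not, and the grey line is equality. Points lie along the line for 24 h against 2 h, where 15 of 16 followed, and a group with values near 0 on the vertical axis appears in the comparisons with the 6 h array.

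Agreement was also taken over all expressed genes with a further probe set, the 2-fold ones included. Over these 2539 genes, the differences of both probe sets correlated across genes with r = 0.62 for 24 h against 2 h, 0.41 for 6 h against 2 h and 0.40 for 24 h against 6 h. The SD within a gene was 0.17, 0.27 and 0.30. Genes are not independent replicates, and the probe sets share arrays and RNA, so these are descriptions.

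Course over the 3 times. Of the 52 genes higher at 24 h, 35 had a 6 h level between those of 2 and 24 h, 8 had one below 2 h and 9 one above 24 h. The 8 included Chac1, Trib3, Vldlr, Slc30a1 and Bcl2l11. The 9 were Cd40, Cdh6, Csf2, Fosl1, H2aw, Lgals3, Lmcd1, Pdgfb and Sprr1a. At 6 h 14 of the 52 were called 2-fold higher too, against the same 2 h array that helped choose them. Of the 35 genes lower at 6 h, 28 were less than 0.5 below 2 h at 24 h, and 18 were again 2-fold higher at 24 h than at 6 h. Choosing genes on a single shared array by itself favours such counts, so they describe the arrays and do not test a course. Besides genes named above, the 18 hold the noncoding RNA genes Malat1 and AY036118, and C1d, Ms4a4d and Zdhhc20. Enpep and Gatad2b were 2-fold lower at both times.

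The same genes in treated cells. Differences within APAP and within AMAP share no array with those between untreated arrays. The 52 genes higher at 24 h in untreated cells were higher in 27 cases in APAP (51.9%) and 28 in AMAP (53.8%) for the same times, against 58.3% and 55.7% of all expressed genes. Their medians were 0.07 and 0.14, and those of all expressed genes 0.10 and 0.06. Of the 36 genes higher at 6 h, 15 were higher in APAP (41.7%) and 5 in AMAP (13.9%), against 52.3% and 46.9% of all expressed genes. The medians of the 36 were -0.14 and -0.55. Treated cells carried the effect of the compounds at each time, including the 2 h array, so these values are no check of the untreated differences.

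The 35 genes lower at 6 h differed from this. In APAP 29 were lower at 6 h than at 2 h, against 47.0% of all expressed genes. By at least 2-fold 21 of them were lower, against 7.33% of all expressed genes, and the median of the 35 was -1.27. At 24 h 27 were lower in APAP, with a median of -0.81, and 31 in AMAP, with a median of -1.21. Of all expressed genes, 40.8% were lower at 24 h in APAP and 42.8% in AMAP. In AMAP at 6 h 8 of the 35 were lower, against 50.3% of all expressed genes, and their median was 0.31. These values come from the same probe sets as in untreated cells. For 6 of the 14 genes with a further probe set, the brightest further one did not follow in untreated cells. The 3 treated arrays on which the median of the 35 was low had dap ratios of -1.72, -1.58 and -1.94, and AMAP at 6 h had -0.44. On the untreated 6 h array the ratio was -0.51, between those of the other untreated arrays. The part of this reading in the low values was not tested.

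**Figure D5:**
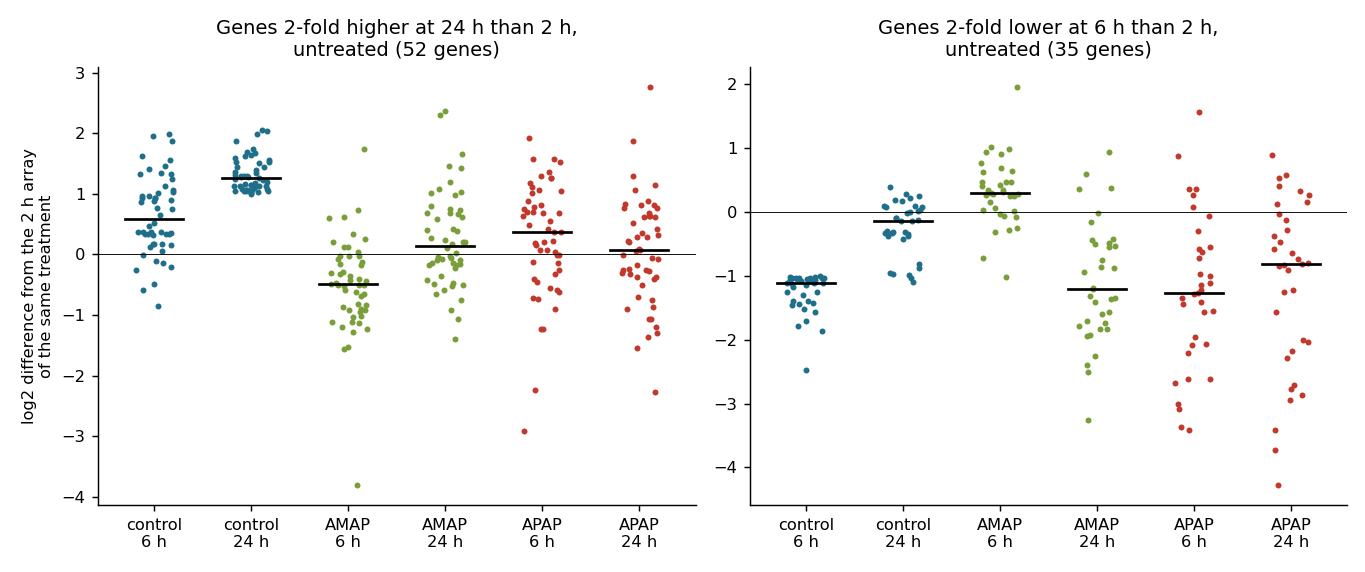
Points are genes chosen as 2-fold higher at 24 h (left, 52 genes) or 2-fold lower at 6 h (right, 35 genes) in untreated cells, bars are medians, and the vertical axis is the log2 difference from the 2 h array of the same treatment. The control column that chose each set is beyond 1 by construction. Each gene is given by the probe set that was brightest over the untreated arrays. At left the treated medians lie between -0.49 and 0.37, and at right the medians are below -0.8 on 3 of the 4 treated arrays and 0.31 for AMAP at 6 h.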

How the data were processed

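RNA of untreated TAMH cells was read on 3 Affymetrix arrays, 1 per time. The authors deposited log2 values, 1 per probe set and array. Per the submitters' processing notes they used Affymetrix Expression Console and RMA; which version, and whether 1 run held all arrays, is not given in the sources used here. By design, RMA equalises distributions and narrows differences of dim probe sets. The number of arrays limits the precision.

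Of 22690 probe sets, 64 were controls; the platform annotation gave 1 symbol for 20380, several for 691 and none for 1555. Python 3.11.15, pandas 2.3.3 and scipy 1.17.1 computed differences, medians and intervals, and limma 3.58.1 in R 4.3.3 the cyclic loess alternative. The calling and probe set steps were run on simulated data in which all probe sets of a changed gene moved alike. That was a check of the code and does not show how probe sets behave on these arrays. Genes were named by rank of level or difference, by list (up to 8 members for levels and 6 for differences), or by 2-fold steps in opposite directions; the text names further members of lists and of called sets, chosen after their values were seen. The 42 gene lists, and the choice of these arrays, were made with earlier results of these data known. Alternatives changed the probe set per gene, normalization, fold, filter, background and the size that counts as following. Promoter windows came from RefSeq tables.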

Additional observations from a re-analysis of the deposited data

How the results depend on the processing

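No paired analysis was possible because each time has 1 array. At 1.5-fold, 190 genes were higher and 102 lower for 24 h against 2 h, 262 and 189 for 6 h against 2 h, and 258 and 405 for 24 h against 6 h. Further probe sets then followed in 60.2%, 36.7% and 35.6%. Counting any size in the same direction as following gave 100%, 90.9% and 88.2%, and asking for 1 log2 gave 31.8% for 6 h against 2 h and 26.5% for 24 h against 6 h. Median centring left 22 genes higher at 6 h than at 2 h. For 24 h against 6 h, 18 genes were lower with the mean of all probe sets, 14 after cyclic loess and 13 after median centring. The other 43 recomputed counts and shares stayed within 1.5 times or within their interval. Of the list medians, that of P450 and phase I genes for 24 h against 6 h was -0.025 with no filter on low values. With members whose further probe set agreed in sign, an alternative chosen after the data were seen, clock genes gave -0.27 for 24 h against 2 h and -0.24 for 24 h against 6 h, and glucocorticoid genes -0.060 and -0.046. With the brightest probe set over all 9 arrays, Pofut2 gave 0.38 for 6 h against 2 h and -0.55 for 24 h against 6 h, and Tmem109 gave 0.21 and -0.19. The cause of these shifts was not tested. Another 598 recomputed list medians moved by less than the limit set, the SD within a gene; 46 of these, none with a median beyond 0.12 in size, changed sign, and 124 recomputed differences of single genes fell below 2-fold or the level required. Dim probe sets limit what a reading at background can show.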
